A study of Homo sapiens with 6 samples.

Results

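This report describes the 240 protein-coding genes of chromosome 19 whose symbol is ZNF followed by a number, out of 58735 genes in the deposited expression table. They were chosen by chromosome, gene class and symbol alone, and no expression value entered the choice. The 6 libraries were made from RNA of SW480, a cell line established from a human colorectal cancer, with genotype WT per the labels. A negative control siRNA had been transfected in 3 of them (control siRNA) and an siRNA against ITGB4, the integrin β4 gene, in the other 3 (ITGB4 siRNA). The series calls the 3 libraries of each group biological replicates, and nothing says which cultures they came from, so p-values measure the spread between these libraries. The labels name no further siRNA against ITGB4 and no time after transfection. In such bulk RNA, fewer cells expressing a gene and less RNA of it per cell cannot be told apart.

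Most genes of this family encode C2H2 zinc finger proteins, in which pairs of cysteines and histidines hold a zinc ion and each finger reads a few bases of DNA. Many carry a KRAB domain, which recruits the corepressor TRIM28 and, through it, the histone methyltransferase SETDB1. They are known for silencing transposable elements, and they arose by tandem duplication, so that they lie in clusters of related neighbours on chromosome 19. Their messenger RNAs are usually scarce.

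The sequences fit the family name. The authors' table marks 232 of the 240 genes as zf-C2H2 transcription factors and gives no family to ZNF229, ZNF414, ZNF428, ZNF723, ZNF738, ZNF761, ZNF8 and ZNF888. In the coding sequence of the longest coding transcript of each gene in GENCODE 29, an in-frame run of codons with the C2H2 spacing of cysteines and histidines was found in 239 of 240 genes (99.6%), ZNF738 being the exception, against 3.19% of 19444 other protein-coding genes. The median was 12 fingers per gene and the most was 36, in ZNF208. Of the 2997 fingers, 45% were followed by codons of the threonine-glycine-glutamate-lysine-proline linker that joins neighbouring fingers in this family. The coding sequence of 1 finger each is shown for the member with the most fingers, the member with the highest level and the tested member with the smallest p, because these 3 show the repeated unit that the members share. Capitals mark the codons of the pair of cysteines and the pair of histidines, read 5′ to 3′ on the coding strand.
ZNF208: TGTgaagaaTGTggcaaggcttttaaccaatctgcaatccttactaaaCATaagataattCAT
ZNF146: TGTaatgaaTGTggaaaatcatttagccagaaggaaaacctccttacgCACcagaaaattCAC
ZNF616: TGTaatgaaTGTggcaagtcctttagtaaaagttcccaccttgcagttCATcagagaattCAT
These runs lie in GRCh38 at chr19:21974197-21974259 (minus strand, the last of 4 exons), chr19:36236660-36236722 (plus strand, the last of 3 exons) and chr19:52116291-52116353 (minus strand, the last of 4 exons). Each is the first finger of its gene with this exact spacing, within 1 exon and followed by the linker codons. Such repeats limit how reads can be assigned. A median of 2.49% of a member's 50-base words also occurred in a transcript of another gene, 45 members shared at least 10% and 8 at least 50%, up to 86.8% in ZNF177. Words were matched to all other annotated genes, also those that overlap a member, as in 99 members on the same strand. The shares are therefore not those of finger repeats alone. Of the 240 genes, 127 overlap a gene on the opposite strand. Whether the counting used strand is not given in the sources used here, so their values are uncertain to that extent.

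The libraries held 13715266 to 15496274 reads assigned to genes, recovered from the deposited FPKM (fragments per kilobase of gene, adjusted for library size) as whole numbers. Reads assigned to no gene are not known from these values. The 240 genes together took 0.208% to 0.224% of the assigned reads. Of the markers of colon epithelium, 5 of 10 had a mean of at least 1 FPKM, with KRT18 the highest at 567 FPKM, and the 10 markers summed to 1125 to 1237 FPKM in the control libraries and 1173 to 1197 with ITGB4 siRNA. Markers of fibroblasts (1 of 7 at 1 FPKM or more, 4 of 7 listed at 0), leukocytes (1 of 6, none of the 6 at 0) and endothelium (1 of 4, 1 of 4 at 0) summed to 0.889 to 3.60 FPKM per list and library. ITGB4 itself was at 74.3, 63.8 and 69.8 FPKM in the control libraries and 41.1, 38.1 and 37.9 with its siRNA. It fell by 0.81 on the log2 scale (SE 0.0658, limma adjusted p = 0.0148). The limma adjusted p was 0.0699, 0.137 and 0.0977 without ITGB4 siRNA replicates 1, 2 and 3 and 0.1004 without control siRNA replicate 3, with log2 fold changes of -0.85, -0.79, -0.79 and -0.80. With no filter on low values it was 0.0618, and with the replicate number as a block it was 0.0564.

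Chromosome 19 ZNF genes were expressed at low levels in SW480 cells. Their median over the 6 libraries was 1.05 FPKM, with quartiles at 0.304 and 2.24. A mean of at least 1 FPKM, the filter used for testing, was reached by 124 of 240 genes (51.7%), 5 FPKM by 18 and 10 FPKM by 5. A further 28 genes were listed at 0 in all 6 libraries. For those, 3 reads over the 6 libraries would equal 0.00359 to 0.0183 FPKM, depending on gene length, which bounds counting error only. ZNF genes of other chromosomes, 235 in all, had a median of 2.09 FPKM, and the 1232 other protein-coding genes of chromosome 19 had 1.18. Of the former, 66.8% reached 1 FPKM, 12 were listed at 0 and the upper quartile was 4.67 FPKM. Of the latter, 51.3% reached 1 FPKM, much as in the members, 178 were listed at 0 and the upper quartile was 10.4 FPKM. The 8 most abundant members made up 23.6% of the summed FPKM of the family.

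ZNF146, a protein made of zinc fingers without a KRAB domain, was the most abundant, at 25.3, 29.8 and 29.2 FPKM in the control libraries and 26.97, 29.03 and 27.51 after ITGB4 siRNA. ZNF787 followed at 20.2, 15.9 and 16.4 FPKM in the control libraries and 19.2, 15.7 and 15.8 after ITGB4 siRNA. ZNF428 was at 16.3, 10.6 and 11.2 FPKM in the control libraries and 13.0, 11.5 and 11.1 after ITGB4 siRNA. In ZNF787 and ZNF428 replicate 1 was the highest library of each group, and in ZNF146 it was the lowest of each. ZNF317 (10.06 ± 0.313 and 10.2 ± 0.150 FPKM, control and ITGB4 siRNA, SD, n = 3 each), ZNF524 (10.2 ± 1.27 and 9.81 ± 0.327), ZNF865 (9.82 ± 1.32 and 10.1 ± 1.04), ZNF580 (8.92 ± 1.29 and 8.76 ± 0.248) and ZNF574 (8.63 ± 0.785 and 8.22 ± 0.288) came next. In all 8 the groups overlapped. Their log2 fold changes, taken as ITGB4 siRNA minus control siRNA on log2(FPKM + 1), ran from -0.06 in ZNF428 and ZNF574 to 0.04 in ZNF865. The sign turned on leaving out 1 library in 6 of them. Without control siRNA replicate 1 it became 0.12 in ZNF428, 0.04 in ZNF524, 0.09 in ZNF580 and 0.06 in ZNF787. ZNF580 also turned without ITGB4 siRNA replicate 2 (0.01), ZNF146 without ITGB4 siRNA replicate 1 (0.01), control siRNA replicate 2 (0.03) or control siRNA replicate 3 (0.02), and ZNF865 without the same 3 (-0.022, -0.014 and -0.0038).

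By position the 240 genes formed 9 clusters of at least 5 members, where a new cluster began at a gap of over 1 Mb between neighbouring members' starts, and 9 genes lay outside them. Numbered from the end of the short arm, they spanned, in GRCh38, 2.8 to 2.9 Mb (cluster 1, 5 genes), 7.1 to 9.8 Mb (cluster 2, 15 genes), 11.5 to 12.6 Mb (cluster 3, 25 genes) and 19.7 to 24.1 Mb (cluster 4, 37 genes) on the short-arm side. Clusters 5 to 9 spanned 34.7 to 35 Mb (5 genes), 36.2 to 37.8 Mb (24 genes), 43.5 to 45.1 Mb (24 genes), 51.6 to 53.6 Mb (39 genes) and 55.5 to 58.5 Mb (57 genes). Median levels were not alike across the clusters. Cluster 4 had the lowest median, 0.424 FPKM, with 14 of its 37 genes listed at 0 in all libraries and 9 of 37 reaching 1 FPKM. Cluster 3 had a median of 0.543 FPKM and 8 of 25 genes at 1 FPKM or more. Clusters 8 and 9 had medians of 1.63 and 1.84 FPKM, with 26 of 39 and 35 of 57 genes at 1 FPKM or more. These are levels per gene length in 1 cell line, and no test between clusters was made.

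**Figure D1:**
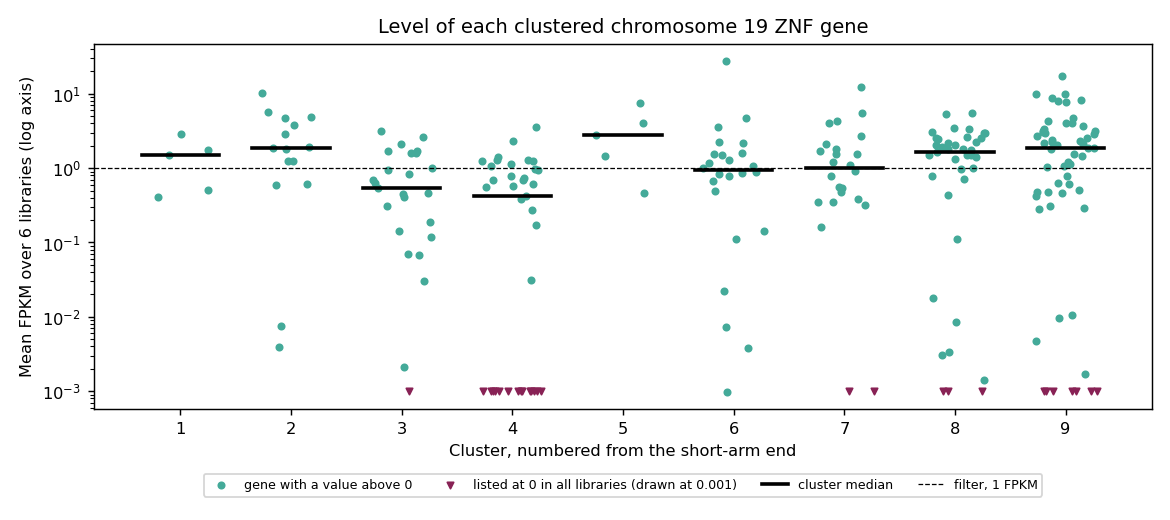
Each point is 1 gene, plotted by its mean FPKM over the 6 libraries (log axis) in its cluster, with a bar at the cluster's median, a dashed line at the 1 FPKM filter and triangles for genes listed at 0. Cluster 4 has the lowest median, 0.424 FPKM, and 14 genes listed at 0.

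The comparison of ITGB4 siRNA with control siRNA called 0 of the 124 tested ZNF genes by limma at an adjusted p under 0.05, where 0.0466% of all 12871 tested genes were called. The smallest adjusted p was 0.732. At an unadjusted p under 0.05 there were 4 members higher with ITGB4 siRNA and 0 lower, which is 3.23% of members beside 5.83% of all tested genes. Among the 4 is ZNF17, which passed the filter only through the ITGB4 siRNA group and had to differ in that direction. The counts at an unadjusted p under 0.05 moved with single libraries. They were 1 higher and 0 lower without ITGB4 siRNA replicate 2 and without ITGB4 siRNA replicate 3, and 2 higher and 0 lower without control siRNA replicate 3. Leaving out control siRNA replicate 1 gave 2 higher and 1 lower, ITGB4 siRNA replicate 1 gave 5 and 1, and control siRNA replicate 2 gave 6 and 1. Limma-voom on the recovered reads called 0 members as well, where it called 0.21% of all genes, and gave 7 members (5.65%) an unadjusted p under 0.05, beside 5.66% of all genes. Those 7 include ZNF17 and ZNF253, which passed the filter only through the ITGB4 siRNA group. The median half-width of a member's 95% interval was 0.237 on the log2 scale, and in each of the 124 members the interval excluded a 2-fold difference on the log2(FPKM + 1) scale, which understates the change of low genes. Each tested member had a mean of 32.7 to 1732 reads per library, with a median of 175, and the libraries of a group varied by a median of 10.6% (coefficient of variation).

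Of the 124 tested members, 73 had a log2 fold change above 0 and 51 below it, that is 58.9% above 0, where 48.5% of all tested genes were above 0. The median was 0.03 for the members and 0.00 for all tested genes. ZNF genes of other chromosomes lay close to the members, with 93 of 157 above 0 (59.2%) and a median of 0.03, while 296 of 632 other protein-coding genes of chromosome 19 (46.8%) were above 0, with a median of -0.01. The groups did not overlap in 14 members higher with ITGB4 siRNA, beside a background of 5.75% of tested genes, and in 3 lower, beside 5.36%. Among the 157 tested ZNF genes of other chromosomes, 16 were higher and 6 lower without overlap. Of the tested members, 4 passed the 1 FPKM filter only through the ITGB4 siRNA group (ZNF17, ZNF253, ZNF461 and ZNF836) and 2 only through the control group (ZNF222 and ZNF441), and these had to differ in that direction. Among the other 118, 69 were above 0, with 12 higher and 2 lower without overlap. The single library with the most low values among members was control siRNA replicate 1. It was the lowest of the 6 in 52 of 124 members (41.9%), and in 23.5% of all tested genes. Without it, 72 of 125 tested members were above 0 and the median was 0.03. With a mean of at least 5 FPKM, where 18 members remained, 5 of 18 were above 0 and the median was -0.04. The direction of the median thus turned between the family and its most abundant members.

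Along the chromosome the members above 0 were unevenly spread. In cluster 8, 23 of 26 tested genes were above 0, with a median log2 fold change of 0.08 and a range of -0.08 to 0.33. Groups did not overlap in 4 of these 26 genes, each higher with ITGB4 siRNA. The same held for 3 higher of 11 in cluster 2 and for 6 higher and 1 lower of 35 in cluster 9. Cluster 4 had 1 higher of 9 and cluster 3 had 1 lower of 8. The background was 5.75% of all tested genes higher and 5.36% lower. In cluster 4, 8 of 9 were above 0, with a median of 0.09. Among these 8 is ZNF253, which passed the filter only through the ITGB4 siRNA group and had to be higher there. In cluster 6, 3 of 12 were above 0, with a median of -0.02. The other clusters were near balance, with 2 of 3 (cluster 1), 6 of 11 (cluster 2), 4 of 8 (cluster 3), 2 of 4 (cluster 5), 7 of 12 (cluster 7) and 18 of 35 (cluster 9) above 0. The cluster counts keep the 4 members that passed the filter only through the ITGB4 siRNA group (ZNF17, ZNF253, ZNF461 and ZNF836). They also keep the 2 that passed only through the control group (ZNF222 and ZNF441). The filter set the direction of these members, and no count by cluster was made without them. Limma called 0 genes in each cluster, beside 0.0466% of all tested genes.

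**Figure D2:**
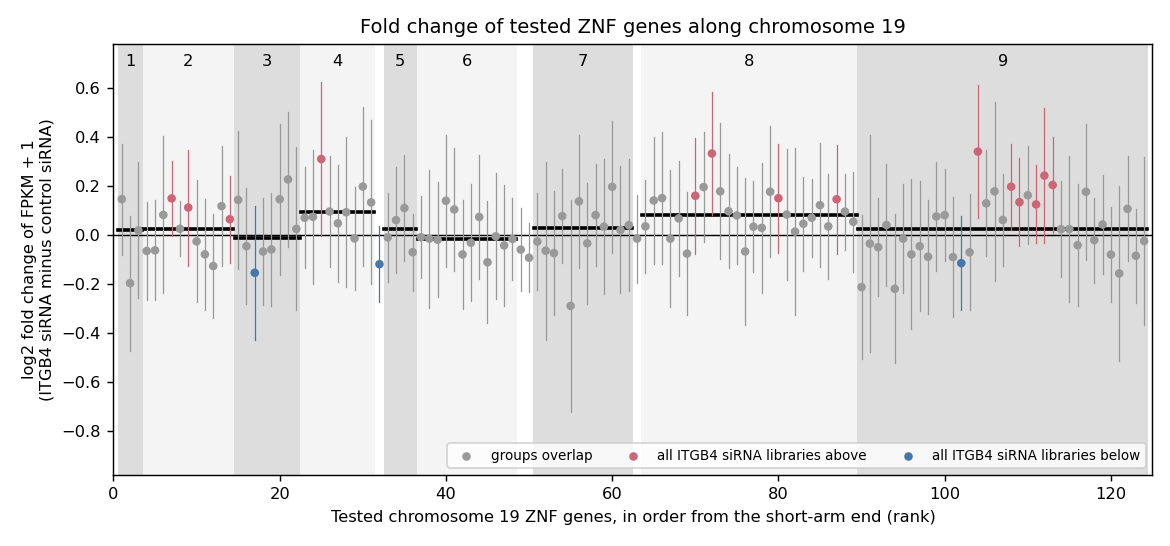
Log2 fold change of FPKM + 1 (ITGB4 siRNA minus control siRNA) of the 124 tested genes in their order along chromosome 19, with 95% intervals, grey bands numbered by cluster and black bars at cluster medians. In cluster 8, 23 of 26 points lie above 0, and in cluster 6, 3 of 12 do.

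The summed FPKM of cluster 8 was 57.3, 68.6 and 63.0 in control siRNA replicates 1, 2 and 3 and 66.3, 68.8 and 69.4 in the ITGB4 siRNA replicates. Control siRNA replicate 2 thus lay within the range of the ITGB4 siRNA libraries and replicate 1 far below it. Cluster 4 summed to 18.8, 23.3 and 21.3 FPKM in the control libraries and 22.2, 23.8 and 25 after ITGB4 siRNA, again with overlap through control siRNA replicate 2. Cluster 6 summed to 49.4, 58.9 and 56.4 FPKM in the control libraries and 52.5, 56.0 and 55.1 after ITGB4 siRNA. Cluster 9 summed to 154.9, 138.1 and 144.9 FPKM in the control libraries and 150.6, 144.1 and 144.0 after ITGB4 siRNA. In clusters 7 and 9 control siRNA replicate 1 was the highest of the 6 libraries, and in clusters 3, 4, 5, 6 and 8 it was the lowest. Over the whole family the sums were 437.6, 445.2 and 438.3 FPKM in the control libraries and 445.9, 449.8 and 450.1 after ITGB4 siRNA, so that the groups did not overlap, by a narrow margin between control siRNA replicate 2 and ITGB4 siRNA replicate 1. As a share of reads these 2 libraries were in the reverse order, at 0.221% and 0.219%, so that the groups overlapped. Without control siRNA replicate 1, 18 of 26 tested genes of cluster 8 were above 0 (median 0.05), and 8 of 10 of cluster 4 (median 0.04). Without control siRNA replicate 2 the median was 0.11 in cluster 8 and 0.15 in cluster 4, and cluster 6 turned, with 10 of 12 above 0 (median 0.02). Cluster 6 also turned without ITGB4 siRNA replicate 1, with 6 of 12 above 0 (median 0.0046).

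**Figure D3:**
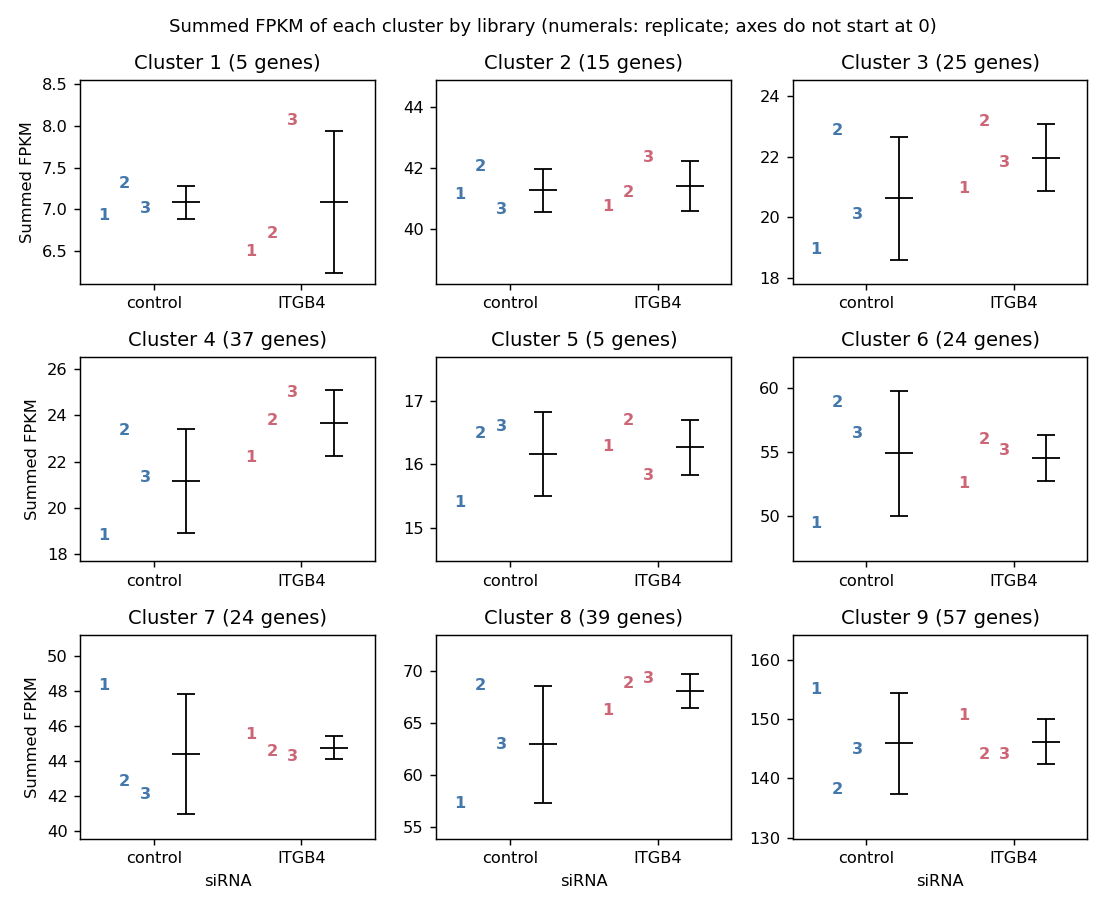
Summed FPKM of all genes of each cluster in the 6 libraries, with numerals for the replicate and bars for the mean and SD of 3 libraries. Control siRNA replicate 1 is the lowest library in clusters 3, 4, 5, 6 and 8 and the highest in clusters 7 and 9.

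The members' transcripts differ from those of their chromosome in base composition. The tested members had a median transcript GC content of 43.1%, against 49.8% for all tested genes and 61.3% for the other tested protein-coding genes of chromosome 19. Tested genes of clusters 4 and 6 had medians of 37.4% and 39.2%. A gap of 0.5 Mb in place of 1 Mb parted cluster 9 into a stretch from 55476332 to 56671783, with 16 genes, a median GC content of 65.9% among the tested and 3 of 11 above 0, and one from 57191500 to 58481230, with 41 genes, 46.4% and 15 of 24 above 0. Libraries differed along GC content in all genes. Among tested protein-coding genes outside the family with a GC content of at most 40%, the median log2 deviation from the mean of the 6 libraries was -0.10 in control siRNA replicate 1 and 0.11 in control siRNA replicate 2, and over 60% it was 0.15 and -0.13. ITGB4 siRNA replicate 1 went the way of control siRNA replicate 1 (-0.07 and 0.07), and the other 3 libraries lay between -0.04 and 0.03 in these bins.

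At low GC content a larger share of members than of other genes was above 0, and at high GC content a smaller share. At a GC content of at most 40%, 18 of 27 members (66.7%) were above 0, with a median of 0.08, beside 38.1% and a median of -0.02 in 1326 other protein-coding genes. From 40% to 45%, 35 of 50 members (70.0%) were above 0, beside 45.1% of 2048 others. Over 60%, 4 of 17 members (23.5%) were above 0, with a median of -0.05, beside 44.6% of 1854 others. Across the 124 members, which share the same 6 libraries, log2 fold change and GC content correlated at r = -0.33 (Spearman -0.26), and across 10587 tested protein-coding genes at r = 0.04. Log2 fold change and number of fingers correlated at r = 0.18 across members, and log2 fold change and mean FPKM at r = -0.21 (Spearman -0.22). These counts and correlations keep the 4 members that passed the filter only through the ITGB4 siRNA group and the 2 only through the control group. The filter set the direction of these members. The other protein-coding genes of the bins include the ZNF genes of other chromosomes. When the GC trend of each library was removed before the fit, 78 of 124 members were above 0, the median was 0.04, and cluster 8 had 23 of 26 above 0 with a median of 0.10. Cluster 6 turned, from 3 of 12 above 0 to 6 of 12, with a median of 0.0052. That fit called 0 members, where it called 0.42% of all genes. It gave 11 of 124 members (8.87%) an unadjusted p under 0.05, beside 10.9% of all genes, 8 of them higher and 3 lower (ZNF507, ZNF526 and ZNF628). ZNF17 and ZNF253, which passed the filter only through the ITGB4 siRNA group, were among the 8.

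**Figure D4:**
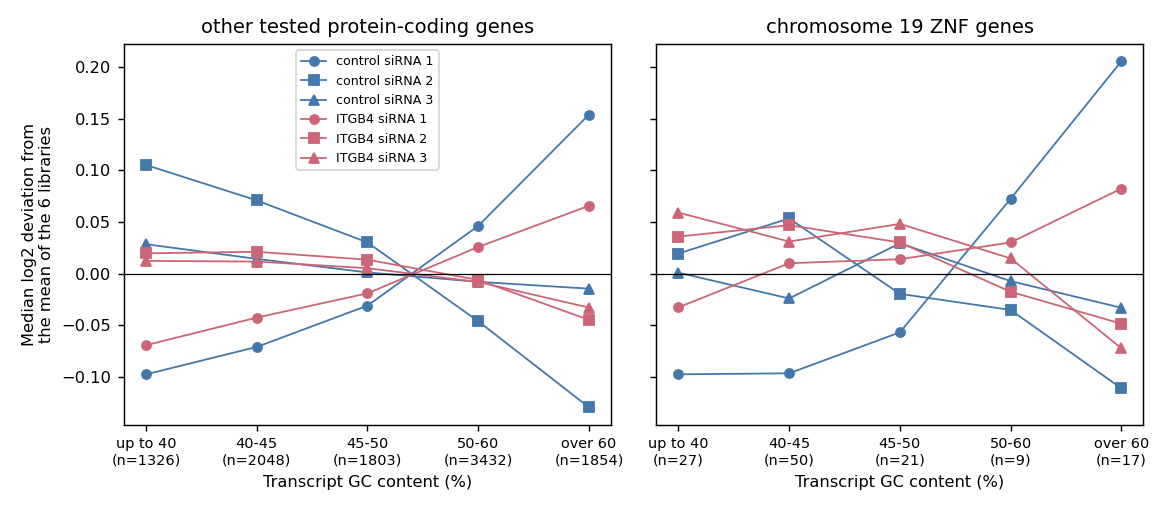
Median deviation (log2 of FPKM + 1) of each library from the mean of the 6 libraries, by transcript GC content, for other tested protein-coding genes (left) and for the 124 tested members (right). Control siRNA replicate 1 runs from the bottom at low GC content to the top over 60% in both panels. Control siRNA replicate 2 runs the other way on the left. On the right it is lowest over 60%, but up to 40% it lies at 0.02, below ITGB4 siRNA replicates 2 (0.04) and 3 (0.06).

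The 8 members with the smallest p among those higher with ITGB4 siRNA came from clusters 2, 4, 8 and 9. ZNF616 of cluster 8 (ENSG00000204611; GRCh38 chromosome 19, 52113091 to 52139922, minus strand), whose finger sequence is among the 3 shown, was at 1.84, 1.82 and 1.45 FPKM in the control libraries and 2.10, 2.72 and 2.40 after ITGB4 siRNA. Its groups did not overlap, and its log2 fold change was 0.33 (SE 0.105, 95% interval 0.08 to 0.58, limma adjusted p = 0.732; limma-voom 0.396). ZNF17 of cluster 9 (chromosome 19, 57411163 to 57421939, plus strand) was at 0.665, 1.004 and 0.837 FPKM in the control libraries and 1.30, 1.22 and 1.43 after ITGB4 siRNA. Every ITGB4 siRNA library lay above every control library. Its control mean was under the 1 FPKM filter, so that it passed only through the group where it is high and had to differ, and its p is no support for a difference.

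ZNF134 of cluster 9 (57614233 to 57624723, plus strand) was at 3.75, 3.64 and 3.81 FPKM in the control libraries and 4.06, 4.93 and 4.31 after ITGB4 siRNA, without overlap. Its log2 fold change was 0.20 (SE 0.0744, limma adjusted p = 0.813). ZNF552, also of cluster 9 (57803841 to 57814913, minus strand), was at 1.92, 1.67 and 1.998 FPKM and 2.44, 2.26 and 2.19, again without overlap (0.20, SE 0.0829, limma adjusted p = 0.850). It shares 14.2% of its 50-base words with other genes. ZNF616, ZNF134, ZNF552 and ZNF17 are the members with an unadjusted limma p under 0.05, and the exact permutation test of each had p = 0.1, which no comparison of 3 with 3 libraries can go below.

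In the remaining 4 of these 8 the 95% interval included 0. ZNF253 of cluster 4 was at 0.831 ± 0.141 FPKM (SD of 3 libraries) in controls and 1.28 ± 0.285 after ITGB4 siRNA, ZNF558 of cluster 2 at 3.59 ± 0.245 and 4.09 ± 0.116, and ZNF586 of cluster 9 at 1.02 ± 0.200 and 1.38 ± 0.168. Their groups did not overlap. ZNF253, like ZNF17, passed the filter only through the ITGB4 siRNA group, and ZNF586 spans ZNF552 on the opposite strand. ZNF841 of cluster 8, a neighbour of ZNF616, was at 2.73, 3.27 and 2.46 FPKM in the control libraries and 3.13, 3.45 and 3.50 after ITGB4 siRNA, so that control siRNA replicate 2 lay within the other group.

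Among the 8 members with the smallest p in the other direction, ZNF507, which lies outside the clusters (chromosome 19, 32345594 to 32387667, plus strand), was at 5.04, 5.72 and 5.37 FPKM in the control libraries and 4.58, 5.003 and 5.02 after ITGB4 siRNA. The groups were separated by a narrow margin, and the log2 fold change was -0.12 (SE 0.0655, limma adjusted p = 0.946). ZNF460 of cluster 9 was at 2.15 ± 0.135 and 1.91 ± 0.136 FPKM (SD of 3 libraries each), with no overlap and a difference of -0.12 on the log2 scale. In the other 6 the groups overlapped: ZNF784 (3.52 ± 0.584 and 2.88 ± 0.456 FPKM), ZNF628 (8.52 ± 0.985 and 7.25 ± 1.29), ZNF57 (1.97 ± 0.359 and 1.58 ± 0.191), ZNF222 (1.30 ± 0.370 and 0.886 ± 0.351), ZNF526 (6.15 ± 0.326 and 5.70 ± 0.227) and ZNF121 (5.94 ± 0.591 and 5.35 ± 0.536). The transcripts of ZNF784 and ZNF628 have GC contents of 64.8% and 70.4%. ZNF222 shares 16.8% of its 50-base words with other genes and passed the filter only through the control group, where it is high.

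**Figure D5:**
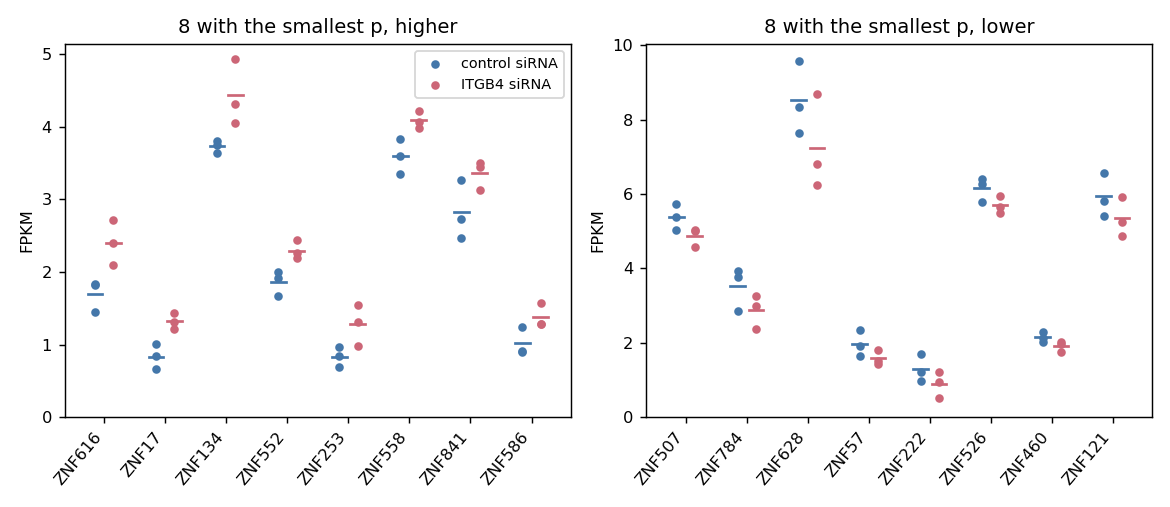
FPKM of the 8 members with the smallest limma p in each direction, 1 point per library (blue, control siRNA; red, ITGB4 siRNA) with a bar at each group mean. ZNF616 ranges from 1.45 to 1.84 with control siRNA and from 2.10 to 2.72 with ITGB4 siRNA, and ZNF507 from 5.04 to 5.72 and from 4.58 to 5.02.

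The highest and the smallest-p members of the other clusters had overlapping groups as well. In cluster 1, ZNF554 was the highest at 2.70 ± 0.181 FPKM in the control libraries and 3.11 ± 0.443 in the ITGB4 siRNA libraries. In cluster 3, ZNF700 was the highest (2.98 ± 0.549 and 3.40 ± 0.566 FPKM), and ZNF443 had the smallest p, at 1.20, 1.69 and 1.29 FPKM in the control libraries and 2.07, 1.62 and 1.70 in the others. Both share many 50-base words with other genes (18.1% and 37.7%). ZNF714 of cluster 4 stood at 3.40 ± 0.380 and 3.70 ± 0.392 FPKM. In cluster 5, ZNF302 (7.47 ± 0.828 and 7.38 ± 0.0393 FPKM) was the highest and ZNF30 (2.65 ± 0.375 and 2.93 ± 0.139) had the smallest p. ZNF529 of cluster 6 (1.44 ± 0.308 and 1.68 ± 0.0803 FPKM), ZNF112 of cluster 7 (1.07 ± 0.217 and 1.36 ± 0.121) and ZNF480 of cluster 8 (5.28 ± 0.295 and 5.65 ± 0.639) complete this set. Limma adjusted p was 0.938 or more in all 9.

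Members known to bind retroelements were represented by 9 genes, of which 6 were tested, 5 above 0 and 1 below. Among all tested members 58.9% were above 0, and among all tested genes 48.5%. The median log2 fold change of the list was 0.026, beside 0.035 for all tested members. Limma called 0 of the list, beside 0.0466% of all tested genes. ZNF765, a binder of LINE-1 elements in cluster 8, was at 1.32, 1.47 and 1.30 FPKM in the control libraries and 1.82, 1.501 and 1.54 after ITGB4 siRNA. Its groups did not overlap (log2 fold change 0.15, SE 0.0936, limma adjusted p = 0.986). ZNF649, which also binds LINE-1 elements, was at 2.39 ± 0.345 and 2.74 ± 0.346 FPKM (SD, n = 3 each), with overlap. ZNF587 and ZNF417 are near neighbours in cluster 9 that bind HERV-K elements and share 18.8% and 37.6% of their 50-base words with other genes. They were at 4.62 ± 0.541 and 4.70 ± 0.250 FPKM, and at 2.72 ± 0.480 and 2.77 ± 0.409. ZNF808, known for its role in pancreas development, was at 2.33 ± 0.543 and 2.15 ± 0.160 FPKM, and ZNF611 at 2.002 ± 0.389 and 2.05 ± 0.102. Under the filter, ZNF91, a repressor of SVA elements, was at 0.944 ± 0.0858 and 0.961 ± 0.137 FPKM, and ZNF93, a repressor of LINE-1 elements, at 0.272 ± 0.0588 and 0.278 ± 0.0416. ZNF534 had a value above 0 in control siRNA replicate 3 alone (0.0200 FPKM).

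Of 9 members whose promoters are often methylated in tumours, 1 reached the 1 FPKM filter, beside 124 of all 240 members. Of the 9, ZNF582, ZNF667, ZNF471 and ZNF677 were listed at 0 in all 6 libraries, as were 28 of all 240 members. ZNF382 had a value above 0 in ITGB4 siRNA replicate 2 alone (0.00578 FPKM). ZNF154 (0.316 ± 0.0232 and 0.303 ± 0.0689 FPKM, SD, n = 3 each), ZNF671 (0.240 ± 0.0783 and 0.317 ± 0.135) and ZNF132 (0.387 ± 0.109 and 0.555 ± 0.120) were under the filter, with overlapping groups. ZNF331, an imprinted gene at the end of cluster 8, was the 1 member of this list that was tested, at 2.09 ± 0.118 and 2.21 ± 0.243 FPKM. Methylation was not analysed here.

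A further 6 members have described roles of other kinds. ZNF274, which recruits SETDB1 to the 3′ ends of ZNF genes, was at 3.76, 3.30 and 3.26 FPKM in the control libraries and 3.39, 3.19 and 3.54 after ITGB4 siRNA, with overlapping groups. ZNF473, a component of the machinery that processes histone messenger RNAs, was at 4.39 ± 0.0747 and 4.35 ± 0.464 FPKM (SD, n = 3 each), and ZNF224, a partner of WT1, at 1.401 ± 0.0790 and 1.65 ± 0.322. ZNF675, an inhibitor of TRAF6 signalling, was under the filter at 0.604 ± 0.0998 and 0.630 ± 0.0738 FPKM. ZNF304, a recruiter of TRIM28, was listed at 0 in the 3 control libraries and in ITGB4 siRNA replicate 1, and at 0.0142 and 0.0139 FPKM in ITGB4 siRNA replicates 2 and 3.

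The corepressor machinery that KRAB zinc finger proteins use was abundant by comparison, with a median of 11.2 FPKM over 32 genes. Of 31 tested, 12 were above 0 and 19 below, with a median log2 fold change of -0.04. Among all tested genes 48.5% were above 0. Limma called 0 of the 31, beside 0.0466% of all tested genes, and 0 had an unadjusted p under 0.05, beside 5.83%. Limma-voom called 0 as well, with 4 of 31 (12.9%) at an unadjusted p under 0.05, beside 5.66% of all genes. The groups did not overlap in 1 gene higher and 1 lower, beside 5.75% and 5.36% of all tested genes. TRIM28, whose gene lies just beyond cluster 9 on chromosome 19 (58544091 to 58550722, plus strand), was at 249.8, 204.3 and 215.1 FPKM in the control libraries and 228.0, 211.1 and 208.9 after ITGB4 siRNA. Its groups overlapped (log2 fold change -0.04, 0.04 without control siRNA replicate 1). SETDB1 was at 3.28 ± 0.173 and 3.30 ± 0.216 FPKM (SD, n = 3 each). Its log2 fold change was 0.01, -0.03 without ITGB4 siRNA replicate 2 and -0.03 without control siRNA replicate 2. CHD3, a chromatin remodeller of the NuRD complex, was at 5.51, 5.40 and 5.62 FPKM in the control libraries and 6.66, 6.10 and 5.80 after ITGB4 siRNA, without overlap (0.14, limma adjusted p = 0.872). The gene lower without overlap was POGZ, named after its values were seen, at 6.35, 7.22 and 6.76 FPKM in the control libraries and 6.23, 6.21 and 6.17 in the others. SUV39H2, a histone H3 lysine methyltransferase, was at 11.4 ± 0.915 and 13.1 ± 1.37 FPKM, MTA2, also of NuRD, at 57.3 ± 1.97 and 53.8 ± 1.395, and TRIM33, a relative of TRIM28, at 8.42 ± 0.788 and 7.46 ± 0.516. In these 3 genes the groups overlapped.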

How the data were processed

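The authors' deposited table gives FPKM per gene for 6 libraries, with a group mean and the gene length, on the GRCh38 build per the submitters' processing notes, which name DESeq2 and edgeR without a role. The aligner and counting tool are not given in the sources used here. The gene length stands in bases in the deposited file. The deposited coordinates equal those of GENCODE 29 for all 58735 genes, whose transcripts gave GC content and finger searches. The group means were not used.

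FPKM times gene length, divided by what 1 read is worth in that library, gave whole reads in 100% of values at a tolerance of 0.01. Genes with a mean of at least 1 FPKM (12871) were fitted as log2(FPKM + 1) with limma 3.58.1 (limma-trend, R 4.3.3), two-sided, 1 term for the siRNA, Benjamini-Hochberg over all genes tested, called at an adjusted p under 0.05. For named genes the two-sided exact permutation test over libraries was added. On simulated counts with 100 genes changed 2-fold among 12871, the fit called 96, 77 of 100 changed 1.5-fold and 12 of 12671 unchanged genes, over genes of all levels and not at the members' low levels. The counts had the same dispersion in all genes and no GC trend between libraries, so these rates were not shown to hold for the real libraries.

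Members named are the 8 with the smallest p in each direction, the 8 most abundant, the highest and smallest-p member of each cluster, and role lists from general knowledge. Members and lists were chosen with earlier results of these data known. Alternatives were other pseudocounts, filters, scalings and tests, a replicate block, and leaving out each library. Removing the GC trend (loess, span 0.3) and leaving out members that share at least 10% of their 50-base words were chosen after seeing the data. Protein sequences were not used here.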

Additional observations from a re-analysis of the deposited data

How the results depend on the processing

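The count of called members was 0 under each alternative run. The number above 0 was 71 to 78 when leaving out 1 library and 58 of 100 without members that share 50-base words. It moved to 131 of 212 with no filter on low values and to 5 of 18 with a mean of at least 5 FPKM, which change the genes tested. The median was between 0.025 and 0.058 in 15 alternatives and -0.041 with a mean of at least 5 FPKM. The medians of clusters 4, 7 and 8 kept their sign in those 15, and those of the other 6 clusters turned in 1 to 4 of them. Robust moderation and the replicate block, also with the GC trend removed, are among the 15 and could not change fold changes in this balanced design. With a mean of at least 5 FPKM the median was -0.0124 in cluster 7 and 0.0874 in cluster 8, over 2 tested genes each. Cluster 4 then had 0 tested genes. The count of all genes called, 6 as reported, was 54 with the GC trend removed, 3 with the GC trend removed and the replicate block, 27 by limma-voom, 0 with no filter on low values and 0 to 7 when leaving out 1 library. The cause was not tested. Replicate numbers share no stated source: across genes, same-numbered libraries had deviations from their group means that correlated at 0.173, 0.102 and -0.010, and for number 3 another library matched better. The replicate block called 0 genes (ITGB4 adjusted p = 0.0564 by limma). The members' median stayed at 0.035, which the block could not move. It gave 4 members higher, ZNF17 among them, and 1 lower (ZNF628) at an unadjusted p under 0.05. Of 541 values of named genes, 519 kept their sign and call, the call of ITGB4 was lost in 6 and 16 turned sign. Many of these genes were picked for the smallest p in a direction, which favours a kept sign. Only ITGB4 had a call to lose, and most genes of the role lists were not followed. Leaving out 1 library, the log2 fold change ran from -0.081 to 0.034 in ZNF146, -0.17 to 0.12 in ZNF428, -0.11 to 0.040 in ZNF524, -0.022 to 0.14 in ZNF865, -0.094 to 0.086 in ZNF580, -0.14 to 0.057 in ZNF787, -0.10 to 0.042 in TRIM28 and -0.030 to 0.042 in SETDB1. ZNF580 was at 0.0021 with the GC trend removed, with and without the replicate block. Depth limits the 116 members under the filter, with a median of 15.2 reads per library.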

Other observations

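Beyond the genes named by rule, 7 tested members had groups that did not overlap, and they were chosen after their values were seen. In cluster 2, ZNF559 was at 1.16, 1.16 and 1.18 FPKM in the control libraries and 1.55, 1.20 and 1.29 after ITGB4 siRNA, and ZNF562 at 1.72, 1.84 and 1.77 and 1.88, 1.89 and 1.94. ZNF432 of cluster 8 was at 1.38, 1.57 and 1.502 FPKM and 1.62, 1.64 and 2.08. ZNF28, in the same cluster, was at 2.39, 2.16 and 2.36 FPKM and 2.42, 3.11 and 2.49. In these genes the lowest ITGB4 siRNA library exceeded the highest control library by a small amount. ZNF211 of cluster 9 was at 2.05, 2.19 and 2.45 FPKM and 2.56, 2.56 and 2.49, and its cluster neighbour ZNF776 at 2.63, 2.71 and 2.82 and 3.15, 3.15 and 2.87. ZNF441 of cluster 3 went the other way, with 1.02, 1.34 and 1.009 FPKM in the control libraries and 0.775, 0.965 and 0.974 after ITGB4 siRNA, and passed the 1 FPKM filter only through the control group, where it is high. Log2 fold changes of the other 6 ran from 0.06 in ZNF562 to 0.16 in ZNF432.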
